A study of Mus musculus with 24 samples.

Results

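The mitochondrial genome carries its own small set of genes, and their transcripts were followed here in isolated hepatocytes of aged mice on a normal or a high-fat diet. Members were the rows of the gene tables whose gene name starts with mt-, and they numbered 37 of 55421 rows. They comprised 13 protein genes, 2 rRNA genes and 22 tRNA genes. RNA-seq had been run on polyA RNA of 24 C57BL/6J mice, each an animal of its own. In the ND + veh group (n = 8), mice ate normal diet with vehicle throughout. In the HFD + veh group (n = 7), mice on normal diet with vehicle were switched at 18 months of age to a high-fat diet with vehicle (60% of calories from fat) for 9 weeks. In the HFD + eRapa group (n = 9), the same switch was made on a diet with 42 ppm of encapsulated rapamycin, an inhibitor of the growth kinase mTOR, which these mice had eaten from 4 months of age. None of these libraries came from a mouse on normal diet with rapamycin, so the drug was compared under high-fat diet only.

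Mammalian mitochondrial DNA encodes core subunits of 4 of the enzyme complexes of oxidative phosphorylation, together with the rRNAs and tRNAs needed to translate them inside the organelle. It is transcribed by the polymerase POLRMT from promoters in the control region as long precursors that cover nearly a whole strand, and tRNAs between the other genes are cut out to release them. Because genes of a strand share a precursor, the steady level of each mature RNA also depends on its processing and decay. Hepatocytes are rich in mitochondria and burn fatty acids in them.

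Copies of mitochondrial DNA also sit in the nuclear genome, and reads from the sequence they share with a member cannot be assigned to either by sequence alone. A run of annotated pseudogenes on chromosome 1 (GRCm38, reverse strand, chr1:24611535-24616197) carried mt-Co2, mt-Atp6, mt-Co3, mt-Nd3, mt-Nd4l, the end of mt-Co1 and the first part of mt-Nd4. Identity to the members was 100% for 5 of these 7 copies, 99.7% for the mt-Nd3 copy Gm28438 and 99.8% for the mt-Co1 copy Gm29216. The first 60 bases of mt-Co2 (chrM:7013-7072) and of its copy Gm28661 (chr1:24615506-24615565) (reverse strand, as all chromosome 1 copies) are shown because no base separates them, and in the other pairs capitals mark the bases that differ. For mt-Nd3 (chrM:9459-9518) and Gm28438 (chr1:24613060-24613119) the window holds the single difference. The windows of mt-Co1 (chrM:5351-5410) and its chromosome 2 copy Gm13340 (chr2:22589565-22589624, reverse strand), and of mt-Cytb (chrM:14145-14204) and its chromosome 4 copy Gm11410 (chr4:80003989-80004048, forward strand), hold 2 and 3 differences.
mt-Co2: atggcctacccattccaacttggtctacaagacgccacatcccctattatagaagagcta
Gm28661: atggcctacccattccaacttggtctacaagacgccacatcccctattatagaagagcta
mt-Nd3: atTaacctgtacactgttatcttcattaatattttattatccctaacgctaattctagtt
Gm28438: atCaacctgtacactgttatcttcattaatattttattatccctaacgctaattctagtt
mt-Co1: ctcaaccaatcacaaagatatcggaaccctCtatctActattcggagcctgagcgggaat
Gm13340: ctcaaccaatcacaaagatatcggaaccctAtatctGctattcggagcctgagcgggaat
mt-Cytb: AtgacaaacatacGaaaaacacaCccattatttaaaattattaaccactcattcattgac
Gm11410: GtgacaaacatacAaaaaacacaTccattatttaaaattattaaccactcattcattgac

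The share of 50-base windows found letter for letter in another annotated transcript was 98.8% or more for mt-Co2, mt-Atp6, mt-Co3 and mt-Nd4l and 98.0% for mt-Nd3. It was 62.2% for mt-Nd4, 51.1% for mt-Co1, 8.19% for mt-Nd2, 7.61% for mt-Nd5 and 0% for mt-Nd1, mt-Nd6, mt-Cytb and both rRNAs. For mt-Atp8 it was also 0%, but that gene lies between mt-Co2 and mt-Atp6, and the stretch between their chromosome 1 copies carries no annotated gene, so its sequence was not analysed here. Counts differed widely between members: mt-Nd1 held between 88586 and 231570.0 counts per library, whereas mt-Co2 held 663 to 3112, mt-Atp6 447 to 1834, mt-Co3 602 to 2963, mt-Atp8 32 to 267, mt-Nd4l 51 to 267 and mt-Nd3 21 to 185. The part of the copies in these low counts was not tested, since the settings for reads with several alignments were not given. The partly shared mt-Nd4 held 64676 to 208002 counts, but it is not a like case, since part of its windows were found in no copy. For these 6 genes with low counts, levels by count were not set beside those of the other members.

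Levels per length put mt-Co1, the catalytic core subunit of cytochrome c oxidase, first among the other members. Its median over 24 libraries was 20247 CPM (read counts scaled to library size by the trimmed mean of M values) per kilobase. It was followed by mt-Cytb of complex III at 10812, the complex I subunits mt-Nd1 at 6115, mt-Nd2 at 6037, mt-Nd4 at 4373, mt-Nd5 at 3037 and mt-Nd6 at 1541, and the rRNAs mt-Rnr1 at 509 and mt-Rnr2 at 484 CPM per kilobase. The medians of mt-Nd1 and mt-Nd2, and of mt-Rnr1 and mt-Rnr2, lay within each other's ranges over the libraries, whereas the median of mt-Co1 exceeded the highest mt-Cytb value (18612) and that of mt-Nd6 the highest mt-Rnr1 value (1126). These are levels in libraries of polyA RNA. How fully each RNA was captured, the rRNAs and mt-Nd6 included, was not tested, so this order need not be that in the cell. The deposited FPKM, made by Cufflinks, gave another picture for the genes with copies: the median FPKM of mt-Co2 was 10486, beside 86.3 CPM per kilobase. The FPKM of mt-Co2 was 0.974 to 0.994 times that of Gm28661 in every library. The highest median FPKM was that of mt-Atp8, the shortest protein gene (204 bases), at 35463, although it shares a transcript with mt-Atp6, whose median was 9659. For the 7 members other than mt-Atp8 that share under 10% of their windows, FPKM was 1.02 to 2.06 times the CPM per kilobase.

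**Figure D1:**
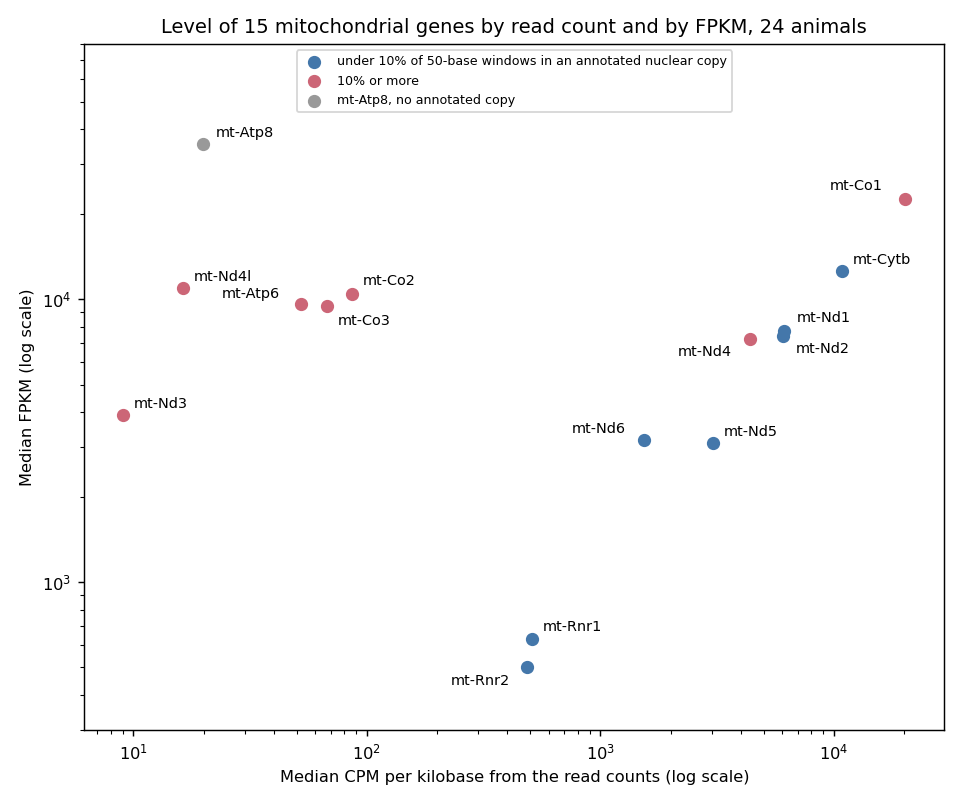
Median level of 15 members over 24 animals by read count (CPM per kilobase, horizontal log axis) and by deposited FPKM (vertical log axis), coloured by the share of 50-base windows found in an annotated nuclear copy; mt-Tp is left out because its FPKM is 0. For the 6 genes at the left FPKM is 122 (mt-Co2) to 1786 (mt-Atp8) times CPM per kilobase, and the other 9 keep a ratio of 1.02 to 2.06.

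Among the tRNAs, which are short and carry no long poly(A) tail, 17 of 22 rows held no count in any library and 4 held 5 reads in sum. The exception was mt-Tp, the proline tRNA, with 1783 to 5529 counts per library. It lies on the reverse strand (GRCm38, chrM:15356-15422), follows mt-Tt without a gap and is the last annotated gene before the control region. Its sequence is shown because it was the only tRNA that could be tested, with its anticodon in capitals.
mt-Tp: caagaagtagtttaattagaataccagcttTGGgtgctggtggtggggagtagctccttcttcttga
FPKM was 0 for every tRNA in every library, mt-Tp included. Whether the counting used strand was not given in the sources used here, so reads of both strands over these 67 bases could not be told apart.

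The libraries held 17739252 to 25945134 counts assigned to genes, and 16 members (13 protein genes, both rRNAs and mt-Tp) passed the filter on low counts. Together the members took 4.38% to 8.15% of all counts in ND + veh (median 4.93%), 4.79% to 9.70% in HFD + veh (median 7.72%) and 6.29% to 10.7% in HFD + eRapa (median 7.55%). All 9 HFD + eRapa libraries and 6 of 7 HFD + veh libraries lay above the ND + veh median, but both groups overlapped ND + veh. The highest ND + veh library, replicate 8 at 8.15%, stood apart from the other 7, which ended at 5.19%. Within each library of polyA RNA, mt-Co1 alone made up 41.4% to 48.7% of the protein gene counts, and the rRNAs made up 1.22% to 4.08% of the mitochondrial counts.

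Markers of other cells were compared with the share of mitochondrial counts. A list of 6 macrophage markers summed to 25.7 to 774 CPM in ND + veh, 111 to 3594 CPM in HFD + veh and 8.56 to 758 CPM in HFD + eRapa. The library with the highest sum was also the one with the highest mitochondrial share both in ND + veh (replicate 8) and in HFD + veh (replicate 6), and the HFD + veh library with the lowest sum (replicate 2) had the lowest share. In HFD + veh, sums of 111, 113 and 638 CPM (replicates 2, 1 and 7) went with shares of 4.79%, 5.85% and 6.47%. Sums of 1561, 1746, 2110 and 3594 CPM (replicates 4, 5, 3 and 6) went with 8.21%, 7.72%, 8.11% and 9.70%. The other ND + veh libraries did not follow this order, with sums of 266 and 472 CPM at shares of 4.38% and 4.65% (replicates 4 and 6) and the lowest sum, 25.7 CPM, at 4.92% (replicate 1). In HFD + eRapa, the highest sums of 758 and 424 CPM (replicates 2 and 4) went with 9.71% and 9.61%. Sums of 360 and 247 CPM (replicates 1 and 3) went with 6.32% and 6.29%, and 128 CPM (replicate 7) with 10.7%. Replicate 6 held 7.14% of mitochondrial counts at the lowest sum of 8.56 CPM. Sums of the endothelial list reached 322, 551 and 254 CPM in ND + veh, HFD + veh and HFD + eRapa, those of the stellate list 209, 431 and 81.2, and those of the cholangiocyte list 20.3, 362 and 59.1. The corresponding highest sums were 33, 487 and 35.3 CPM for lymphocyte, 6.54, 39.8 and 10.6 CPM for neutrophil and 73.9, 615 and 297 CPM for erythroid genes. No marker was at 0 in all libraries, and 14 of 43 tested markers rose and 1 fell from ND + veh to HFD + veh, beside 16% and 9.86% of all genes tested. From HFD + veh to HFD + eRapa 2 rose and 21 fell, beside 10.9% and 21.1% of all genes, with endothelial and stellate markers all among them. The hepatocyte list summed to 53846 to 156078, 95175 to 162955 and 49172 to 140684 CPM in ND + veh, HFD + veh and HFD + eRapa. The part of other cells in the results below was not tested, and in these bulk samples fewer cells of a type and less RNA per cell cannot be told apart.

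**Figure D2:**
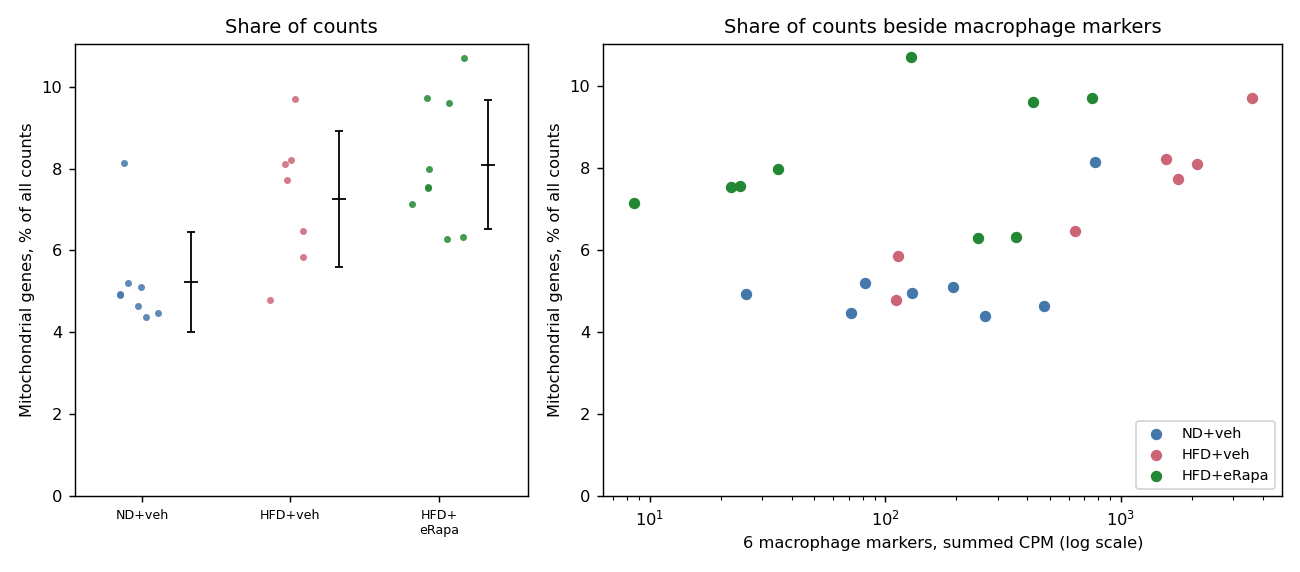
Left, the share of all counts assigned to the 37 mitochondrial genes (percent) in each animal, with the mean and SD of each group as a black bar. Right, the same share against the summed CPM of 6 macrophage markers (log axis), where ND + veh replicate 8 and HFD + veh replicate 6 lie at the upper right of their groups and the HFD + eRapa library at 10.7% has a sum of 128 CPM.

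High-fat diet was compared with normal diet first, to ask whether mitochondrial transcripts respond to it. In HFD + veh, 8 of the 16 tested members were higher than in ND + veh and none was lower by edgeR's quasi-likelihood test (adjusted p under 0.05), beside 25.9% of all 13847 genes tested that were called, 16% higher and 9.86% lower. At an unadjusted p under 0.05, 10 members were higher and none lower. All 8 were protein genes, and they covered each of the 4 complexes with mitochondrial subunits, complex V only by mt-Atp6 and mt-Atp8 with their low counts. The calls were unevenly spread. Of the 7 members little shared with nuclear copies, which include both rRNAs (-0.28 and -0.27), 1 was called, at a median log2 fold change of 0.30. Of the 8 other protein members, shared with copies or mt-Atp8, 7 were called, at a median of 0.84. The median log2 fold change over the 16 members was 0.51, beside 0.05 over all genes.

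Among members little shared with nuclear copies, only mt-Cytb, the cytochrome b of complex III, was called. It ranged from 5329.8 to 12749.6 CPM in ND + veh (median 8432), and from 7951 to 14044 CPM in HFD + veh (median 12291). The log2 fold change was 0.52 ± 0.16 (SE, adjusted p = 0.0247), and 2 of 7 HFD + veh libraries lay above every ND + veh library. The call was lost without ND + veh replicate 1 or 4 or without HFD + veh replicate 3, 4 or 6, at adjusted p = 0.0502 to 0.0784. Complex I subunits little shared with copies fell short of the threshold. The proton-pumping subunit mt-Nd5 was at 2866 to 5655 CPM in ND + veh (median 3936) and 3372 to 6709 CPM in HFD + veh (median 5659), with 4 of 7 HFD + veh libraries above every ND + veh library. The membrane-arm subunit mt-Nd1 was at 2952 to 9887 CPM (median 5121) and 3903 to 9764 CPM (median 6797), so that ND + veh reached higher than HFD + veh. The next protein gene, mt-Nd2, gave the same picture, at 2918 to 9875 CPM (median 5379) and 4302 to 7639 CPM (median 6783). For mt-Nd5 the log2 fold change was 0.46 ± 0.17 (adjusted p = 0.0535), for mt-Nd6 0.30 ± 0.15 (adjusted p = 0.126), for mt-Nd1 0.31 ± 0.22 (adjusted p = 0.299) and for mt-Nd2 0.21 ± 0.19 (adjusted p = 0.427).

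Of the partly shared members, mt-Co1 was higher by 0.50 ± 0.16 on the log2 scale (adjusted p = 0.0289). Its values were 16173 to 34589.8 CPM in ND + veh (median 21573) and 21123 to 42081 CPM in HFD + veh (median 31805), so the groups overlapped over much of their range. The complex I core subunit mt-Nd4 was higher by 0.66 ± 0.21 (adjusted p = 0.0247), at a median of 6444 against 3693 CPM. The remaining called members were among the 6 with low counts. The subunit mt-Co2, which takes electrons from cytochrome c, was at 34.7 to 80.1 CPM in ND + veh (median 44.1) and 54.7 to 123 CPM in HFD + veh (median 112). The small ATP synthase subunit mt-Atp8 was at 1.49 to 4.74 CPM (median 2.46) and 2.78 to 11.9 CPM (median 7.08). In HFD + veh, 4 of 7 libraries for mt-Co2 and 5 of 7 for mt-Atp8 exceeded every ND + veh library. For the oxidase subunits, log2 fold changes were 0.90 ± 0.27 for mt-Co2 (adjusted p = 0.0196) and 0.88 ± 0.27 for mt-Co3 (adjusted p = 0.0220). For the ATP synthase subunits they were 1.31 ± 0.31 for mt-Atp8 (adjusted p = 0.00490) and 0.81 ± 0.26 for mt-Atp6 (adjusted p = 0.0247), and mt-Nd4l was higher by 0.96 ± 0.28 (adjusted p = 0.0167). The value for mt-Nd3 was 0.64 ± 0.33 (adjusted p = 0.158).

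Of 15 annotated nuclear copies tested, 14 were higher in HFD + veh, with a median log2 fold change of 1.04. These were all 10 copies of called members and 4 of 5 copies of members that were not called. Gm28661, the copy of mt-Co2, was at a mean of 137 CPM in HFD + veh and 65.4 CPM in ND + veh. Adding the counts of the chromosome 1 copies to their members, an alternative chosen after seeing the data, again gave 8 called, beside 25.8% of all genes.

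Neither rRNA was called. The small-subunit rRNA mt-Rnr1 ranged from 199 to 1075 CPM in ND + veh and from 291 to 652 CPM in HFD + veh (log2 fold change -0.28 ± 0.29, adjusted p = 0.491). The large-subunit rRNA mt-Rnr2 ranged from 364 to 2099 CPM and from 346 to 1024 CPM (log2 fold change -0.27 ± 0.37, adjusted p = 0.616). For mt-Tp the log2 fold change was -0.15 ± 0.19 (adjusted p = 0.591).

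The count of 8 rested on a few libraries. It was 4 without ND + veh replicate 1 or replicate 4 (beside 18.9% and 26.2% of all genes called), 3 without HFD + veh replicate 3 or replicate 4 (beside 18.0% and 19.3%), and 2 (mt-Atp8 and mt-Nd4l) without HFD + veh replicate 6 (beside 15.1%). HFD + veh replicates 3, 4 and 6 had macrophage marker sums of 2110, 1561 and 3594 CPM. Replicate 5, at 1746 CPM, left 7 calls when taken out (beside 22.8% of all genes), and the part of other cells was not tested. Without ND + veh replicate 4 and HFD + veh replicate 6 together, which stood apart in earlier analyses of these data and hold the lowest and the highest mitochondrial share of their groups, 1 member (mt-Atp8) was called, beside 16.7% of all genes. Without ND + veh replicate 8 and HFD + veh replicate 2, which hold the opposite extremes and were taken by that share, 13 members were called, beside 35.4% of all genes. The count of called members thus ran from 1 to 13 with the libraries kept, and a pair chosen by the share itself is no independent check.

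**Figure D3:**
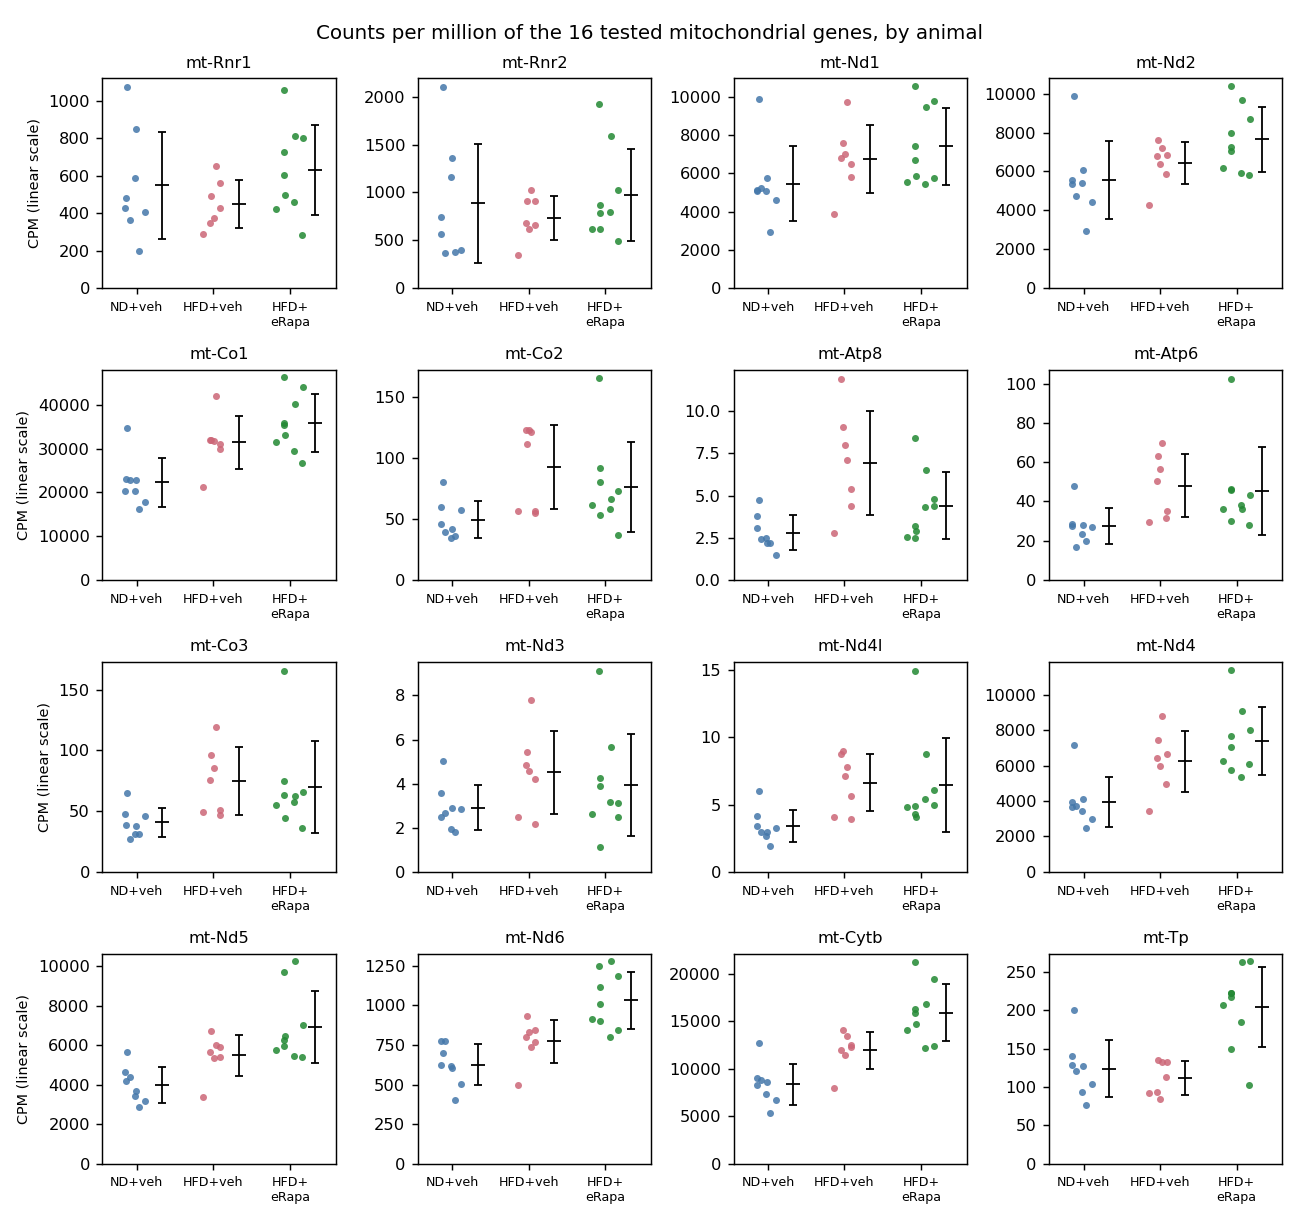
CPM of the 16 tested members (linear axes from 0) in each animal of ND + veh, HFD + veh and HFD + eRapa, in order along the mitochondrial genome, with the mean and SD of each group as a black bar. The ND + veh and HFD + eRapa groups do not overlap for mt-Nd6, and 1 ND + veh animal (replicate 8) lies at the top of its group for most genes.

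Rapamycin was then compared with vehicle under high-fat diet. Members called were 2 of 16, both higher in HFD + eRapa, beside 32% of all genes called, 10.9% higher and 21.1% lower. The 2 were mt-Nd6, the complex I subunit that is the only protein encoded on the reverse strand, and mt-Tp, the reverse-strand tRNA, and no other reverse-strand member was tested. A link to the strand was not tested, and the strand setting of the counting, which was not given, bears on both. Forward-strand mt-Cytb had a log2 fold change of 0.42, as mt-Nd6 did, and fell just short of the threshold. The median log2 fold change was 0.22 over the 16 members and -0.04 over all genes.

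In HFD + veh, mt-Tp was at 112, 92.7, 93.4, 84.4, 135, 132 and 132 CPM in replicates 1 to 7. In HFD + eRapa it was at 103, 223, 185, 263, 217, 206, 264, 223 and 149.9 CPM in replicates 1 to 9. All HFD + eRapa libraries but replicate 1 lay above the highest HFD + veh library, and the log2 fold change was 0.87 ± 0.19 (adjusted p = 0.00206), which is 1.82-fold. The call was kept in all 36 alternatives that tested this gene.

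For mt-Nd6, values ran from 499.6 to 932 CPM in HFD + veh (median 799) and from 801 to 1281 CPM in HFD + eRapa (median 1011). All 9 HFD + eRapa libraries lay above the HFD + veh median and 5 above its highest library, with a log2 fold change of 0.42 ± 0.14 (adjusted p = 0.0298). The call was lost without HFD + veh replicate 2 (adjusted p = 0.0600), without HFD + eRapa replicate 4 (adjusted p = 0.0536) and without HFD + eRapa replicate 7 (adjusted p = 0.0509). It was also lost by FPKM (adjusted p = 0.0675), with total counts without TMM (adjusted p = 0.0601) and with at least 10 counts in every library (adjusted p = 0.0524). A replicate block (adjusted p = 0.0919) and leaving out the pair taken by mitochondrial share lost the call too. It was kept in 29 of 38 alternatives. For forward-strand mt-Cytb, the next protein gene along the genome, 7 of 9 HFD + eRapa libraries lay above every HFD + veh library. Its log2 fold change was 0.42 ± 0.16 (adjusted p = 0.0505, 0.0293 by DESeq2 and 0.0879 by FPKM). It was called in 10 of 38 alternatives, with adjusted p up to 0.129.

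No other member passed. For mt-Nd5, the HFD + eRapa libraries ran from 5382 to 10237 CPM (median 6273), and 3 of 9 lay above every HFD + veh library. For mt-Co1 they ran from 26704 to 46361 CPM (median 35305), with 2 of 9 above. Log2 fold changes were 0.33 ± 0.17 for mt-Nd5, 0.25 ± 0.21 for mt-Nd4, 0.25 ± 0.19 for mt-Nd2, 0.13 ± 0.21 for mt-Nd1 and 0.19 ± 0.16 for mt-Co1. The rRNAs had 0.48 ± 0.29 (mt-Rnr1) and 0.40 ± 0.36 (mt-Rnr2). The 6 genes with low counts all had values below 0, between -0.66 ± 0.29 for mt-Atp8 (adjusted p = 0.0874) and -0.04 ± 0.27 for mt-Nd4l, and none was called. Their sign was not stable: mt-Atp6, mt-Co3, mt-Nd3 and mt-Nd4l were above 0 without HFD + veh replicate 6. For mt-Nd4l the value was above 0 in 17 of 38 alternatives, such as 0.01 with scaling from nuclear genes only. The value of mt-Atp8 passed the test in 4 of 38 alternatives, without HFD + eRapa replicate 2 (-0.83, adjusted p = 0.0266), without HFD + veh replicate 2 (-0.79, adjusted p = 0.0305), without the pair taken by mitochondrial share (-0.80, adjusted p = 0.0245) and with total counts without TMM (-0.80, adjusted p = 0.0445). None of the 15 nuclear copies was called either. By FPKM, mt-Nd4l was higher in HFD + eRapa by 0.38 on the log2(FPKM + 1) scale (adjusted p = 0.0172), the opposite sign to its counts. On that scale mt-Co2 (0.16), mt-Atp8 (0.22) and mt-Co3 (0.10) were also above 0, and mt-Atp6 (-0.001) and mt-Nd3 (-0.04) below, none of them called.

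**Figure D4:**
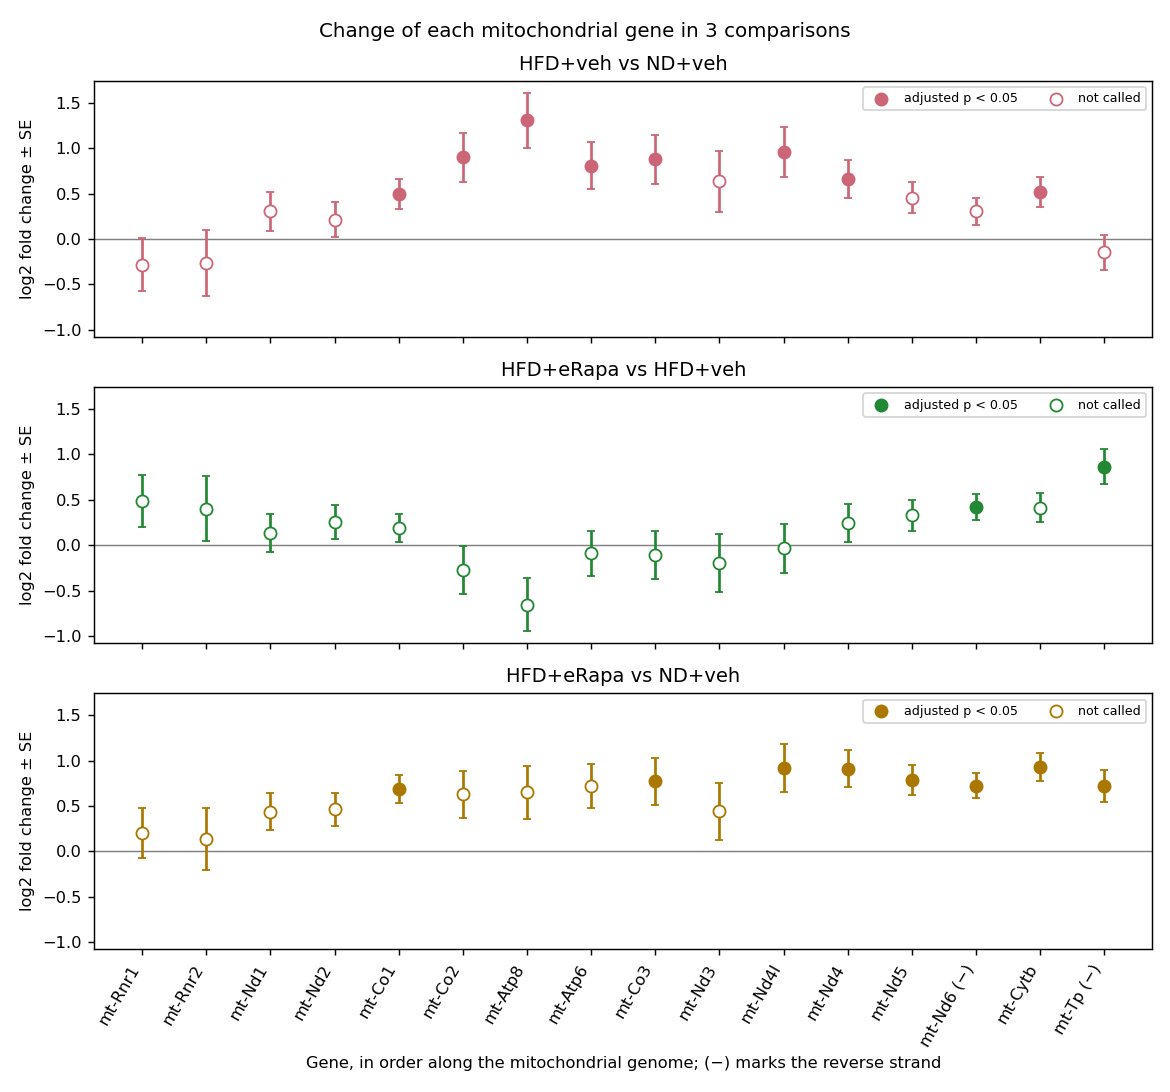
Log2 fold change ± SE of the 16 tested members in 3 comparisons, in order along the mitochondrial genome, with filled points for adjusted p under 0.05 and (−) for reverse-strand genes. In HFD + veh against ND + veh the values peak at mt-Atp8 (1.31), and in HFD + eRapa against HFD + veh the filled points are mt-Nd6 and mt-Tp.

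Both groups at the ends of the design were compared as well, HFD + eRapa with ND + veh, which differ in diet and drug. Here 8 of 16 members were called, all higher in HFD + eRapa, beside 13.5% of all genes called, 6.93% higher and 6.54% lower. The median log2 fold change was 0.70 over the members and -0.03 over all genes. These comparisons share libraries with those above and are not independent of them.

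The 8 were mt-Cytb, mt-Nd6, mt-Nd5, mt-Nd4, mt-Co1, mt-Tp, mt-Nd4l and mt-Co3. For mt-Cytb the HFD + eRapa libraries ran from 12195 to 21292 CPM (median 15897), and 7 of 9 lay above every ND + veh library, at a log2 fold change of 0.93 ± 0.16 (adjusted p = 0.000229). The groups did not overlap for mt-Nd6, at 801 to 1281 CPM against 403 to 777 CPM (log2 fold change 0.72 ± 0.14, adjusted p = 0.000949). Values of mt-Nd5 were 5382 to 10237 CPM against 2866 to 5655 CPM (log2 fold change 0.79 ± 0.16, adjusted p = 0.00201). The HFD + eRapa libraries of mt-Nd4 ran from 5339 to 11392 CPM (median 7032), and 4 of 9 exceeded every ND + veh library, as 5 of 9 did for mt-Co1. The log2 fold changes of mt-Nd4 and mt-Co1 were 0.91 ± 0.20 (adjusted p = 0.00310) and 0.69 ± 0.15 (adjusted p = 0.00368), and that of mt-Tp was 0.72 ± 0.18 (adjusted p = 0.00830). These 6 calls were kept in all alternatives run, 38 for each protein gene and 36 for mt-Tp. The call of mt-Nd4l (0.92 ± 0.27, adjusted p = 0.0206) was kept in 36 of 38, and lost without HFD + eRapa replicate 2 (adjusted p = 0.0525) and with a replicate block (adjusted p = 0.0507). The call of mt-Co3 (0.77 ± 0.26, adjusted p = 0.0468) was kept in only 17 of 38 alternatives, with adjusted p up to 0.121.

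By complex, 4 of 7 complex I members, the complex III member, 2 of 3 complex IV members and neither complex V member were called. Among the 7 members little shared with copies, mt-Nd5, mt-Nd6 and mt-Cytb were called. Of the 15 nuclear copies 7 were called, with a median log2 fold change of 0.78 over the 15. They were 6 of 10 copies of called members and 1 of 5 copies of the others, all higher. At the start of the genome no member was called, at 0.20 ± 0.28 for mt-Rnr1, 0.13 ± 0.34 for mt-Rnr2, 0.44 ± 0.20 for mt-Nd1 (adjusted p = 0.171) and 0.46 ± 0.18 for mt-Nd2 (adjusted p = 0.0960). Without ND + veh replicate 8, mt-Nd1 (adjusted p = 0.0308) and mt-Nd2 (adjusted p = 0.0102) were called too.

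Ratios between members within a library do not depend on scaling, and they are given as a description, with the pairs of genes chosen with earlier results known. The ratio of mt-Nd4 to mt-Nd1 counts was 0.653 to 0.841 in ND + veh, 0.849 to 1.03 in HFD + veh and 0.816 to 1.13 in HFD + eRapa, so that the vehicle groups did not overlap. Part of mt-Nd4 is shared with Gm28439, as given above. The ratio of mt-Cytb to mt-Nd1, neither of which had shared windows, had medians of 1.55, 1.85 and 2.19 in ND + veh, HFD + veh and HFD + eRapa. Of 9 HFD + eRapa libraries, 8 lay above every ND + veh library and 6 above every HFD + veh library. In contrast, mt-Nd2 to mt-Nd1 had medians of 1.02, 1.01 and 1.05, with overlapping groups.

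Counts of mt-Tp were 1.27% to 1.70% of those of mt-Cytb in ND + veh and 0.737% to 1.17% in HFD + veh, and these groups did not overlap. In HFD + eRapa the range was 0.824% to 1.56%, with 6 of 9 libraries above every HFD + veh library and 3 below every ND + veh library. Counts of mt-Nd6 stayed between 12.2% and 18.1% of those of mt-Nd5 in all 24 libraries, and the 3 groups overlapped. The rRNA share of mitochondrial counts was 1.42% to 4.08% in ND + veh, 1.40% to 1.86% in HFD + veh and 1.22% to 2.6% in HFD + eRapa, also with overlap.

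**Figure D5:**
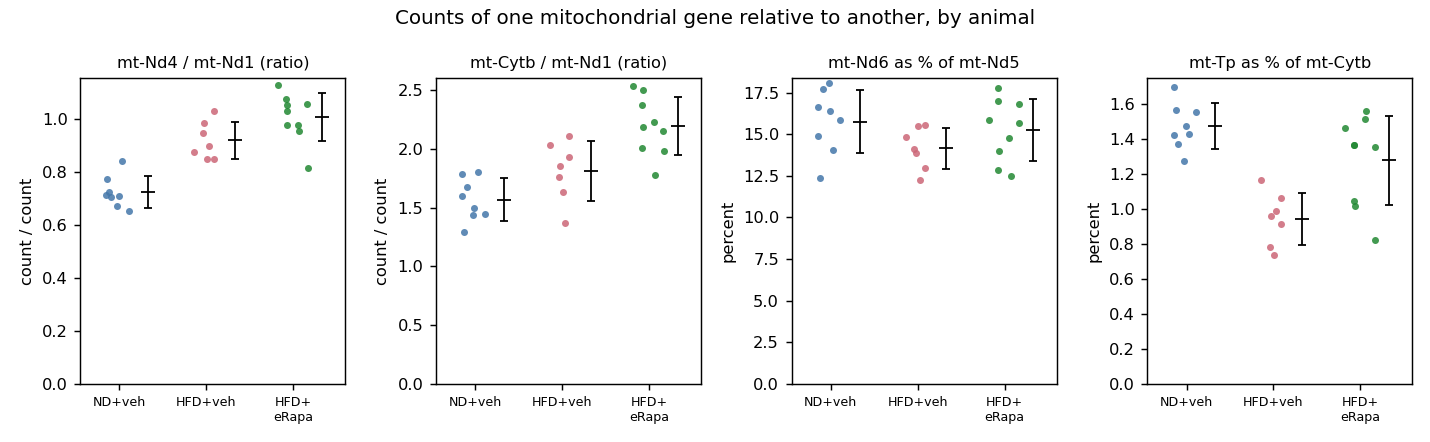
Counts of a mitochondrial gene relative to another in each animal (mt-Nd4 and mt-Cytb over mt-Nd1, mt-Nd6 as percent of mt-Nd5, mt-Tp as percent of mt-Cytb), with the mean and SD of each group as a black bar and axes from 0. The ND + veh and HFD + veh groups do not overlap for mt-Nd4 over mt-Nd1 and for mt-Tp over mt-Cytb.

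Fold changes from FPKM, tested with limma on log2(FPKM + 1), gave 5 called members in HFD + veh against ND + veh (mt-Co1, mt-Cytb, mt-Nd4, mt-Nd5 and mt-Atp6), 1 in HFD + eRapa against HFD + veh and 9 in HFD + eRapa against ND + veh. The share of all genes called by FPKM was 19.4%, 21.9% and 10.4% in these comparisons. Under high-fat diet mt-Cytb had a log2 fold change of 0.52 on both scales. The value of mt-Atp8 was -0.12 by FPKM (adjusted p = 0.648) against 1.31 by count, and that of mt-Nd4l was 0.10 against 0.96.

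Transcription and upkeep of mitochondrial DNA depend on nuclear genes, and 63 of them were tested. In HFD + veh against ND + veh, 8 were higher and 2 lower, beside 16% and 9.86% of all genes, with a median log2 fold change of -0.02. Basal transcription genes were not among them: Tfam, the DNA-packaging factor that also starts transcription, was at 34.2 to 50.9 CPM in ND + veh and 40.6 to 47.3 CPM in HFD + veh (log2 fold change 0.01 ± 0.08, adjusted p = 0.962). The polymerase Polrmt had -0.34 ± 0.16 (adjusted p = 0.115), the initiation factor Tfb2m 0.05 ± 0.11 and the elongation factor Tefm 0.23 ± 0.12. Higher genes included Mterf2, of the mitochondrial termination factor family (1.19 ± 0.29, adjusted p = 0.00606), Pnpt1, the polynucleotide phosphorylase that degrades mitochondrial RNA (0.66 ± 0.16, adjusted p = 0.00662), Ptcd3, a protein of the mitochondrial ribosome (0.38 ± 0.10), Hsd17b10, a subunit of mitochondrial RNase P (0.55 ± 0.16), and Fastkd2 (0.45 ± 0.15). The lower genes were Slc25a33, a pyrimidine nucleotide carrier (-1.02 ± 0.18, adjusted p = 0.000515), and Yy1 (-0.33 ± 0.11). Without HFD + veh replicate 2 the list had 16 calls, beside 32.0% of all genes. Without ND + veh replicate 1, 5 or 7 or HFD + veh replicate 3 or 6 it had 5 or 6, beside 15.1% to 21.3%.

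In HFD + eRapa against HFD + veh, 10 of the 63 were higher and 6 lower, beside 10.9% and 21.1% of all genes, with a median of 0.12. Slc25a33 was higher by 1.11 ± 0.18 (adjusted p = 0.000150) and Hsd17b10 by 0.86 ± 0.16 (adjusted p = 0.000706), the latter at a mean of 195 CPM in HFD + eRapa against 107 CPM in HFD + veh. Twnk, the replicative helicase (0.55 ± 0.15), Tbrg4 (0.50 ± 0.15) and Tfb2m (0.34 ± 0.11, adjusted p = 0.0215) were higher as well. Tfb2m ran from 22.1 to 28.6 CPM in HFD + eRapa, against 16.3 to 25.1 CPM in HFD + veh. The lower genes were led by Ppargc1a, which encodes the coactivator PGC-1alpha of mitochondrial biogenesis, at 3.82 to 6.82 CPM in HFD + eRapa and 5.61 to 19.2 CPM in HFD + veh (log2 fold change -0.89 ± 0.23, adjusted p = 0.00525). Dguok, a nucleoside kinase (-0.40 ± 0.11), Pnpt1 (-0.56 ± 0.16), Primpol (-0.54 ± 0.19) and Angel2 (-0.21 ± 0.08) were lower too. Without HFD + veh replicate 3 or 4, 7 list genes were called, beside 24.6% and 24.9% of all genes. There were 8 and 9 without HFD + veh replicate 6 and HFD + eRapa replicate 6, beside 23.5% and 27.3%.

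The stability factors Lrpprc and Slirp, which bind mitochondrial mRNAs as a pair, gave 0.27 ± 0.11 (adjusted p = 0.0505) and -0.46 ± 0.22 (adjusted p = 0.115) in that comparison, and the poly(A) polymerase Mtpap gave -0.07 ± 0.10. Under high-fat diet alone Slirp had 0.61 ± 0.23 (adjusted p = 0.0512), Lrpprc -0.11 ± 0.11 and Mtpap 0.12 ± 0.10. In HFD + eRapa against ND + veh, 5 list genes were higher and 1 lower, beside 6.93% and 6.54% of all genes. These were Hsd17b10 (1.41 ± 0.16, adjusted p = 2.71e-06), Mterf2 (1.57 ± 0.28), Ptcd3 (0.47 ± 0.10), Tefm (0.48 ± 0.12), Tfb2m (0.40 ± 0.11) and, lower, Ppargc1a (-0.78 ± 0.22).

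Nuclear genes encode the other subunits of the same complexes, and 76 such genes, close partners such as Atpif1 included, were tested. In HFD + veh against ND + veh, 3 were higher and none lower, beside 16% and 9.86% of all genes, with a median log2 fold change of 0.14 and 6 at an unadjusted p under 0.05. For complex I, 2 of 37 nuclear genes were called beside 2 of 7 mitochondrial ones, with medians of 0.14 and 0.46. The called ones were Ndufs1 (0.28 ± 0.10) and Ndufv2 (0.36 ± 0.13). None of 9 nuclear complex III genes or of 13 complex IV genes was called, at medians of 0.13 and 0.15, beside the single mitochondrial complex III gene and all 3 complex IV genes. In complex V, 1 of 17 was called, Atpif1, the inhibitor of ATP synthase (0.91 ± 0.25), beside both mitochondrial genes. Among these mitochondrial calls, mt-Nd4l, mt-Co2, mt-Co3, mt-Atp6 and mt-Atp8 were genes with low counts, and by FPKM only mt-Atp6 of them was called. The mitochondrial and nuclear genes of a complex were not tested against each other.

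With rapamycin under high-fat diet, 4 of the 76 were higher and 2 lower, beside 10.9% and 21.1% of all genes, at a median of 0.14. The higher ones were Cyc1 (0.46 ± 0.18) and Uqcrq (0.53 ± 0.20) of complex III, Cox7a2l (0.31 ± 0.10) and Atp5g2 (0.31 ± 0.11), and the lower ones were Atpif1 (-1.08 ± 0.24) and Cox7a1 (-1.02 ± 0.35), the latter at under 1 CPM. In HFD + eRapa against ND + veh, 5 were higher and none lower, beside 6.93% and 6.54% of all genes, at a median of 0.28, and 72 of the 76 had values above 0. Ndufs1 (0.36 ± 0.09) and Ndufv2 (0.39 ± 0.12) were among 3 in complex I, with Uqcrc2 (0.38 ± 0.11) in complex III and Atp5a1 (0.37 ± 0.11) in complex V, and complex IV had none.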

How the data were processed

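The study compared isolated hepatocytes (liver perfusion and a Percoll gradient) of 24 male mice, 8 ND + veh, 7 HFD + veh and 9 HFD + eRapa, by RNA-seq of polyA RNA, and the labels put all libraries in batch 1. The authors aligned reads to mm10 with Gencode annotation by STAR, filtered alignments with SAMtools 1.1.0, and deposited raw read counts per gene from HTSeq 0.11.2, without normalization, and FPKM values per gene from Cufflinks. Strand and overlap settings were not given in the sources used here. HTSeq leaves out reads with several alignments unless told otherwise, and which setting was used was not given.

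From the counts, genes were filtered with filterByExpr, scaled by TMM and tested with edgeR 4.0.16 (R 4.3.3), quasi-likelihood, in 1 fit of 3 groups, with Benjamini-Hochberg adjustment over 13847 genes and a threshold of 0.05. SE is the log2 fold change divided by its t-equivalent statistic. FPKM were tested with limma 3.58.1 on log2(FPKM + 1), at a mean FPKM of 1 or more. This understates changes of low genes. The scripts were tested on simulated data. Alternatives were DESeq2 1.42.0, voom, other scalings and filters, a pseudocount of 0.1, the 2 groups alone, a replicate block, and leaving out each library. Replicate numbers name different animals, and libraries of a group differed by more than sampling noise. Member transcripts (Gencode M21, GRCm38) were aligned with blastn to all other annotated transcripts, and copies were kept at 90% identity over 30% of the member. Counting error is small beside the spread between animals at 17739252 to 25945134 counts per library, except for members such as mt-Nd3 with 21 to 185 counts.

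Members and gene lists were chosen with earlier results of these data known. All members were accounted for, tRNAs were named where they passed the filter, and 8 list genes (Polrmt, Tfam, Tfb2m, Tefm, Lrpprc, Slirp, Mtpap, Ppargc1a) were always named, with up to 5 called genes per direction and comparison and up to 2 nuclear subunits per complex.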

Additional observations from a re-analysis of the deposited data

Results flagged for a closer look

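In 63 sets of values (16 members and 5 derived measures in 3 groups), 12 had an extreme library by Dixon's criterion, and chance gives about 1 in 20, or 3.15. ND + veh replicate 8 was the highest of its group for mt-Nd1 (9887 CPM, the next 5769.8), mt-Nd2 (9875 CPM), mt-Co1 (34589.8 CPM), mt-Atp6 (47.9 CPM), mt-Nd4 (7171 CPM) and the mitochondrial share of counts (8.15%, the next 5.19%). It also held the highest sums of macrophage, endothelial, stellate, lymphocyte, neutrophil and erythroid markers of its group, and their part was not tested.

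HFD + eRapa replicate 2 was the highest of its group for mt-Co2 (165 CPM), mt-Atp6 (103 CPM), mt-Co3 (166 CPM, the next 74.9) and mt-Nd4l (14.9 CPM), which are genes with low counts. HFD + veh replicate 2 was the lowest of its group for mt-Nd5 (3372 CPM, the next 5360.2) and mt-Cytb (7951 CPM, the next 11451).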

How the results depend on the processing

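Calls of members in HFD + veh against ND + veh (8, beside 25.9% of all genes called) were 5 with no expression filter (beside 9.62%). They were 5 with only the 2 groups compared (beside 17.4%) and 5 by FPKM at both pseudocounts (beside 19.4% and 16.7%). Without 2 libraries that stand apart (ND + veh replicate 4 and HFD + veh replicate 6) 1 was called, beside 16.7%. Without ND + veh replicate 8 and HFD + veh replicate 2, taken by their mitochondrial share, 13 were called, beside 35.4%. Both pairs were chosen after seeing the data. Leaving out each library gave 2 to 10, beside 15.1% to 32.0% of all genes. In HFD + eRapa against HFD + veh (2, beside 32%) member calls were 1 with at least 10 counts in every library (beside 26.1%). They were 1 by FPKM (beside 21.9% and 21.3%) and 1 to 3 when leaving out each library (beside 23.5% to 36.1%). In HFD + eRapa against ND + veh (8) that range was 6 to 11. Total counts without TMM gave 1 higher and 1 lower (mt-Atp8) in HFD + eRapa against HFD + veh, beside 30.1% of all genes. The median of all genes moved to -0.13 there.

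For the nuclear list, calls in HFD + veh against ND + veh (10) were 5 with no filter (beside 9.62% of all genes) and 5 with only the 2 groups (beside 17.4%). They were 5 without the first pair (beside 16.7%) and 19 without the second (beside 35.4%). Leaving out each library gave 5 to 16 list calls, beside 15.1% to 32.0%. In HFD + eRapa against HFD + veh (16) they were 10 with no filter, 10 with only the 2 groups, 8 by FPKM at both pseudocounts, 10 without the first pair and 7 to 19 when leaving out each library, and in HFD + eRapa against ND + veh (6) 5 to 7. FPKM reversed mt-Atp8 in HFD + veh against ND + veh (-0.12 at both pseudocounts) and mt-Nd4l in HFD + eRapa against HFD + veh (0.38 at both). The cause of these changes was not tested.

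Libraries of the same replicate number were not alike in all comparisons (mean correlation of deviations 0.32, -0.24 and -0.20 in the 3 comparisons, with 5 of 7, 2 of 7 and 2 of 8 pairs over 0.1, and 2, 0 and 0 libraries correlating best with their own number). For HFD + veh against ND + veh, the first of these, this check cannot exclude a pairing. With a replicate block, member calls were 8, 1 and 6, beside 17.8%, 18.3% and 11.4% of all genes. List calls in HFD + eRapa against HFD + veh were 8 in that fit. Of the single-member values under the alternatives, 1689 kept their side of the threshold, 77 lost a call and 48 gained it. Another 4 reversed sign with a call in the main fit or the alternative. Changes of sign with no call in either are among the 1689.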
